A study of Mus musculus with 1 sample.

Results

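The 10 T cell receptor β joining segments TRBJ1-1 to TRBJ1-4, TRBJ2-1 to TRBJ2-5 and TRBJ2-7 were followed in peripheral T cells of 1 mouse with autochthonous small cell lung cancer (SCLC). They were counted over assembled receptor transcripts (contigs) that the deposited contig table marks as coming from a cell, productive, of high confidence and of the TRB chain. This gave 909 contigs in 881 cells, out of 981 such TRB contigs in 945 cells, and the remaining contigs carried TRBJ1-5 (33) or TRBJ1-6 (39). TRBJ1-7 and TRBJ2-6 were named in 0 contigs of the table. The mouse was of a C57BL/6 background, its lung tumours were started by intratracheal Adeno-Cre, after which Rb1 and Trp53 are lost in the lung cells that the virus reaches, and it received PBS every 3 days as the vehicle arm. The T cells were drawn in 150 µl of blood and left untouched by a negative selection (Pan T Cell Isolation Kit II). The library of the combination-treated animal was not analysed here. With 1 library from 1 mouse no test was run, and 95% intervals (exact Clopper-Pearson for shares, exact Poisson for UMI sums, Newcombe for differences of shares) cover counting error only.

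A β chain is assembled in the thymus by joining a V, a D and a J segment. The J segments lie in 2 clusters, each followed by its own constant gene: D1, the J1 cluster and C1 come first, then D2, the J2 cluster and C2. TRBD1 can be joined to either J cluster, whereas TRBD2 lies downstream of the J1 cluster. A joint of TRBD1 to J2 deletes what lies between on that chromosome, and the constant gene is added afterwards by RNA splicing. The J segment supplies the last part of CDR3, the loop that touches the peptide and MHC, and all of framework 4 behind it.

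On GRCm39 the locus lies on the plus strand of chromosome 6, where Trbj1-1 to Trbj1-7 cover 1824 bases (41510798 to 41512621) and Trbj2-1 to Trbj2-7 cover 1103 bases (41519688 to 41520790), by the GENCODE vM39 annotation. Trbj2-6 is annotated as a pseudogene. Trbd1 (41510135 to 41510146) precedes the first cluster and Trbc1 (41515152 to 41516815) follows it, while Trbd2 (41519097 to 41519110) and Trbc2 (41523664 to 41525286) flank the other. The members of the first cluster are TRBJ1-1 (chr6:41510798-41510845), TRBJ1-2 (chr6:41510935-41510982), TRBJ1-3 (chr6:41511257-41511306) and TRBJ1-4 (chr6:41511745-41511795). Those of the other are TRBJ2-1 (chr6:41519688-41519737), TRBJ2-2 (chr6:41519891-41519941), TRBJ2-3 (chr6:41520157-41520205), TRBJ2-4 (chr6:41520296-41520344), TRBJ2-5 (chr6:41520387-41520435) and TRBJ2-7 (chr6:41520744-41520790). The germline J sequences are shown because mean CDR3 length followed, in part, the length of their first part. Capitals mark the bases that encode CDR3 and lower case those of framework 4, 5′ to 3′, by the GENCODE vM39 transcripts:
TRBJ1-1: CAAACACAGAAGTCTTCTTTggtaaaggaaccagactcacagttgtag
TRBJ1-2: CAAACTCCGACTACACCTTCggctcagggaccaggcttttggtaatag
TRBJ1-3: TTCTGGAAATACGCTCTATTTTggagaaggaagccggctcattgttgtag
TRBJ1-4: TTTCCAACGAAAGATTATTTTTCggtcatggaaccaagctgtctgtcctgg
TRBJ2-1: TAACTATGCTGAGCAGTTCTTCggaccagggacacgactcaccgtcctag
TRBJ2-2: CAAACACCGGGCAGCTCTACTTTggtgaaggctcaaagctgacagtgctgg
TRBJ2-3: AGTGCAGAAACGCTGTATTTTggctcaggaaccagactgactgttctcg
TRBJ2-4: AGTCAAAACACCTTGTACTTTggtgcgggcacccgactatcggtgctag
TRBJ2-5: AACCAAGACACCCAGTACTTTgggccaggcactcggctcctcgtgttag
TRBJ2-7: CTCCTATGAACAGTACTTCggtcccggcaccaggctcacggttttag

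Framework 4 of the contigs was equal to these germline bases in 907 of 909 contigs, so nearly all difference between contigs of 1 segment lay upstream of it. The CDR3 part was 20 bases long in TRBJ1-1 and TRBJ1-2, 22 in TRBJ1-3 and TRBJ2-1, 23 in TRBJ1-4 and TRBJ2-2, 21 in TRBJ2-3, TRBJ2-4 and TRBJ2-5, and 19 in TRBJ2-7. The D segments are short and differ in 1 base, which is capitalised, and in the length of the G run behind it:
TRBD1: gggacAgggggc
TRBD2: gggacTgggggggc

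The member cells were T cells by their markers and were covered unevenly. Each of the 881 cells held a UMI (1 captured RNA molecule) of Cd3d, Cd3e, Cd3g, Trac or Lck. B cell genes (Cd79a, Cd79b, Ms4a1) were seen in 52 cells (5.90%) and the platelet genes Pf4 and Ppbp in 95 (10.8%). Of the B cell genes, Cd79b was seen in 46 cells, Cd79a in 5 and Ms4a1 in 2. Cd79b is given by T cell lineage below. Gamma delta T cell genes (Trdc, Tcrg-C1, Tcrg-C2, Tcrg-C4) were seen in 42 cells and monocyte genes (Lyz2, Csf1r, Cd14) in 32. NK cell genes (Ncr1, Klrb1c) were seen in 19 cells, as were erythroid genes (Hbb-bs, Hba-a1). The neutrophil genes S100a8 and S100a9 held 224 UMIs in 7 cells. A cell held 569 to 17444 UMIs in the gene expression matrix, with a median of 5083, and 136 cells had a ribosomal protein share under 10%. A TRB contig rested on a median of 8 UMIs (1 to 66) and 17401 reads. In 74 contigs it rested on 1 or 2 UMIs. The cells fell into 843 clonotypes with 864 distinct CDR3 nucleotide sequences.

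TRBJ2-7 was the most used segment and the J2 cluster supplied most chains. TRBJ2-7 was found in 168 of 881 cells, 19.1% (16.5% to 21.8%). TRBJ1-1 followed with 117 cells (13.3%, 11.1% to 15.7%), TRBJ2-5 with 113 (12.8%, 10.7% to 15.2%) and TRBJ2-1 with 102 (11.6%, 9.54% to 13.9%). TRBJ2-7 is the last segment of its cluster, whereas TRBJ1-1 and TRBJ2-1 are the first of theirs. TRBJ2-3 was found in 79 cells (8.97%), TRBJ1-4 in 77 (8.74%), TRBJ2-4 in 74 (8.40%) and TRBJ2-2 in 64 (7.26%). TRBJ1-2 with 59 cells (6.70%) and TRBJ1-3 with 52 (5.90%, 4.44% to 7.67%) were used least. Of neighbours in this order, TRBJ2-7 and TRBJ1-1 lay outside each other's intervals, as did TRBJ2-1 and TRBJ2-3. The other neighbours could not be ordered at this depth.

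**Figure D1:**
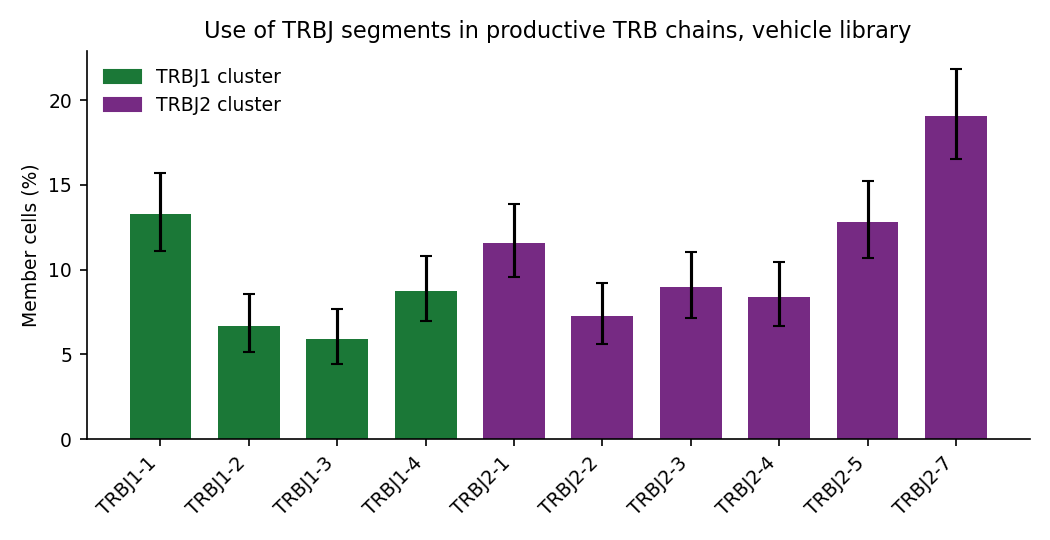
Share of the 881 member cells (%) that used each TRBJ segment, in locus order, with TRBJ1 segments in green and TRBJ2 segments in purple; bars are shares and error bars exact 95% binomial intervals. TRBJ2-7 stands at 19.1% and TRBJ1-3 at 5.90%.

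Assigning each cell to the cluster of its TRB contig with most UMIs, 585 cells used J2, 66.4% (63.2% to 69.5%), and 296 used J1. The J1 members are 4 segments and the J2 members 6. Counting TRBJ1-5 and TRBJ1-6 as well, the J2 share was 61.7% of 945 cells. A second productive member chain was present in 28 cells, with both in J2 in 16, both in J1 in 3 and 1 in each cluster in 9. The same J segment was in both chains in 4 of them. Cells with different segments count under each, so the numbers of the segments add to more than 881. At the level of clonotypes the spread was alike, from 47 clonotypes for TRBJ1-3 to 160 for TRBJ2-7.

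Every C call stayed within the cluster of its J segment. Of 300 J1 contigs with a C call, 300 had TRBC1 (100%, 98.8% to 100%), and of 603 J2 contigs 603 had TRBC2 (100%, 99.4% to 100%). A call was missing in 5 J1 contigs, 4 of them with TRBJ1-1, and in 1 J2 contig. The 71 TRBJ1-5 and TRBJ1-6 contigs with a call had TRBC1 as well.

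D calls followed the order of the locus too. TRBD2 was called in 0 of 66 J1 contigs with a D call, which allows a share of up to 4.55%, and in 68 of 131 J2 contigs (51.9%, 43.0% to 60.7%). Most contigs had no D call, 712 of 909 (78.3%), and the share with one was 21.6% for J1 and 21.7% for J2. Among J1 segments, counted per contig, it was TRBJ1-4 (22 of 77 contigs) and TRBJ1-1 (29 of 117) that had most calls, and TRBJ1-2 with 6 of 59 had fewest. A clonotype of 8 cells with TRBV1, TRBJ1-4 and a TRBD1 call adds a contig for each cell. The TRBJ1-4 calls are therefore not all separate joints. The order of these segments with each clonotype counted once was not computed. Within J2 the TRBD2 share ran from 5 of 13 calls for TRBJ2-3 (38.5%, 13.9% to 68.4%) to 18 of 26 for TRBJ2-5 (69.2%, 48.2% to 85.7%). TRBJ2-7 had 18 of 39, TRBJ2-1 10 of 20, TRBJ2-4 10 of 18 and TRBJ2-2 7 of 15, and these intervals overlapped.

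**Figure D2:**
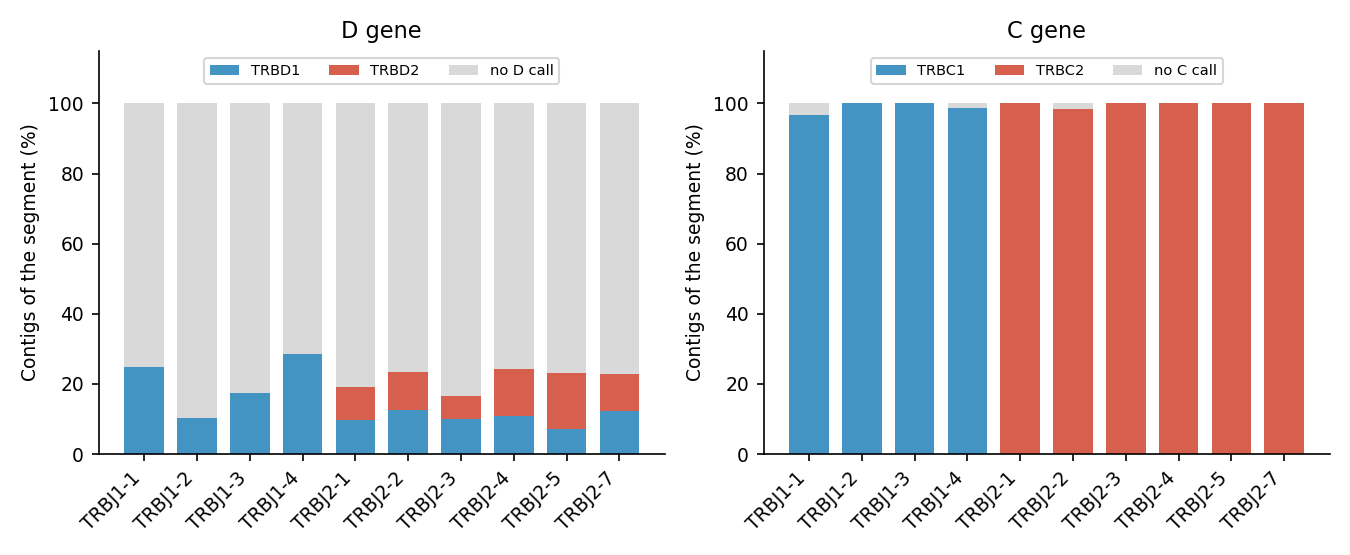
Share of each segment's contigs (%) by D call (left) and C call (right), with the first gene of the locus (TRBD1, TRBC1) in blue, the other (TRBD2, TRBC2) in red and contigs without a call in grey. TRBD2 calls appear in J2 segments only, and the C gene changes fully between TRBJ1-4 and TRBJ2-1.

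Since D was seldom called, the CDR3 bases ahead of the J match were also searched for the longest stretch of TRBD1 or TRBD2 that spans the differing base. With at least 6 matching bases, 164 of 305 J1 contigs and 388 of 604 J2 contigs had a match. TRBD2 took 16 of the 164 (9.76%, 5.68% to 15.4%) and 234 of the 388 (60.3%, 55.2% to 65.2%). When longer matches were required, the J1 share was 3 of 79 at 8 bases (3.80%, 0.790% to 10.7%) and 0 of 30 at 10 bases (0% to 11.6%). Both intervals held the 9.76% at 6 bases. The J2 share went to 178 of 238 (74.8%, 68.8% to 80.2%) and 110 of 139 (79.1%, 71.4% to 85.6%). TRBD2 is the longer gene, 14 bases against 12, and the shares by matches depend on the minimum chosen. By matches of at least 6 bases, TRBJ2-5 was again highest with 50 of 69 (72.5%, 60.4% to 82.5%), and TRBJ2-1 lowest with 33 of 67 (49.3%, 36.8% to 61.8%). Where both existed, call and match named the same gene in 65 of 65 J1 contigs and 114 of 128 J2 contigs.

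CDR3 β had a median of 14 amino acids, with a mean of 13.9 ± 1.44 (SD over 909 contigs, range 10 to 18), and 656 contigs (72.2%) had 13 to 15. The clusters differed little. The mean was 13.8 ± 1.34 amino acids in 305 J1 contigs and 14.0 ± 1.49 in 604 J2 contigs, a difference of 0.196. The SDs are over single contigs and give no error for this difference. With TRBJ1-5 and TRBJ1-6 counted in J1 the difference was 0.0657. Segments of 1 cluster differed more than that. TRBJ2-7 had the lowest mean, 13.2 ± 1.31 (n = 170 contigs), and TRBJ1-1 was close at 13.3 ± 1.32 (n = 117). TRBJ2-2 had the highest, 14.8 ± 1.24 (n = 64), followed by TRBJ1-3 (14.4 ± 1.09, n = 52) and TRBJ2-3 (14.4 ± 1.43, n = 79). The other means were 13.5 ± 1.24 for TRBJ1-2 (n = 59), 14.3 ± 1.23 for TRBJ1-4 (n = 77), 14.1 ± 1.59 for TRBJ2-1 (n = 104), 14.2 ± 1.44 for TRBJ2-4 (n = 74) and 14.1 ± 1.33 for TRBJ2-5 (n = 113). TRBJ1-1, TRBJ2-7 and TRBJ1-2 thus stood at the short end, and the 7 others lay between 14.1 and 14.8. The SD over the contigs of a segment, 1.09 to 1.59, was close to the whole span of the segment means, 1.63 amino acids.

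The order of the means followed the germline part shown above only in part. TRBJ2-7, TRBJ1-1 and TRBJ1-2 had the shortest germline parts and the lowest means. Among the rest the order departed. TRBJ2-1, with 22 germline bases, had a mean of 14.09 amino acids. TRBJ2-3 and TRBJ2-4, with 21 each, had 14.38 and 14.22. Across the 10 segments, germline CDR3 bases and mean CDR3 length had a Pearson r of 0.877 and a Spearman rho of 0.805, given as a description since the segments share 1 library and the germline bases are themselves counted in the CDR3. TRBJ2-7, with the shortest germline part, also lost most of it, with a mean of 4.33 bases trimmed from its 5′ end. It kept 14.7 ± 2.78 J bases, and TRBJ2-2 kept 20.7 ± 1.99. TRBJ1-3 was trimmed least, by a mean of 1.35 bases, and 32 of its 52 contigs (61.5%) held the whole germline part. TRBJ2-4 (31 of 74, 41.9%), TRBJ2-3 (33 of 79, 41.8%) and TRBJ1-2 (23 of 59, 39.0%) followed, then TRBJ2-2 (19 of 64, 29.7%), TRBJ1-1 (30 of 117, 25.6%) and TRBJ1-4 (19 of 77, 24.7%). At the other end this was so in 15 of 104 TRBJ2-1 contigs (14.4%), 26 of 170 TRBJ2-7 contigs (15.3%) and 20 of 113 TRBJ2-5 contigs (17.7%). A base added at the joint that happens to equal the germline base is counted as kept, which in simulated contigs added 0.22 bases on average.

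The bases ahead of the J match, which hold the end of V, the D segment and added bases, varied less between segments. They ran from a mean of 22.1 ± 3.80 for TRBJ1-2 to 24.8 ± 4.17 for TRBJ2-7. All 6 J2 segments lay at 23.2 or above, and of the J1 segments TRBJ1-4 alone did so (23.4 ± 3.59). By cluster these bases numbered 22.6 ± 3.58 in J1 and 24.1 ± 4.14 in J2, while the J bases kept numbered 18.7 ± 2.77 and 17.8 ± 3.15, so that both parts differed in opposite directions and the total differed little. J2 contigs called with TRBD2 had 15.0 ± 1.16 amino acids (n = 68) and those called with TRBD1 14.2 ± 1.39 (n = 63). TRBD2 is also the longer gene. Contigs with any D call were longer than those without, 14.6 ± 1.25 (n = 197) against 13.7 ± 1.43 (n = 712). The bases ahead of the J match numbered 26.5 and 22.8. A D call rests on D bases among them, so the call and this length are not independent.

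**Figure D3:**
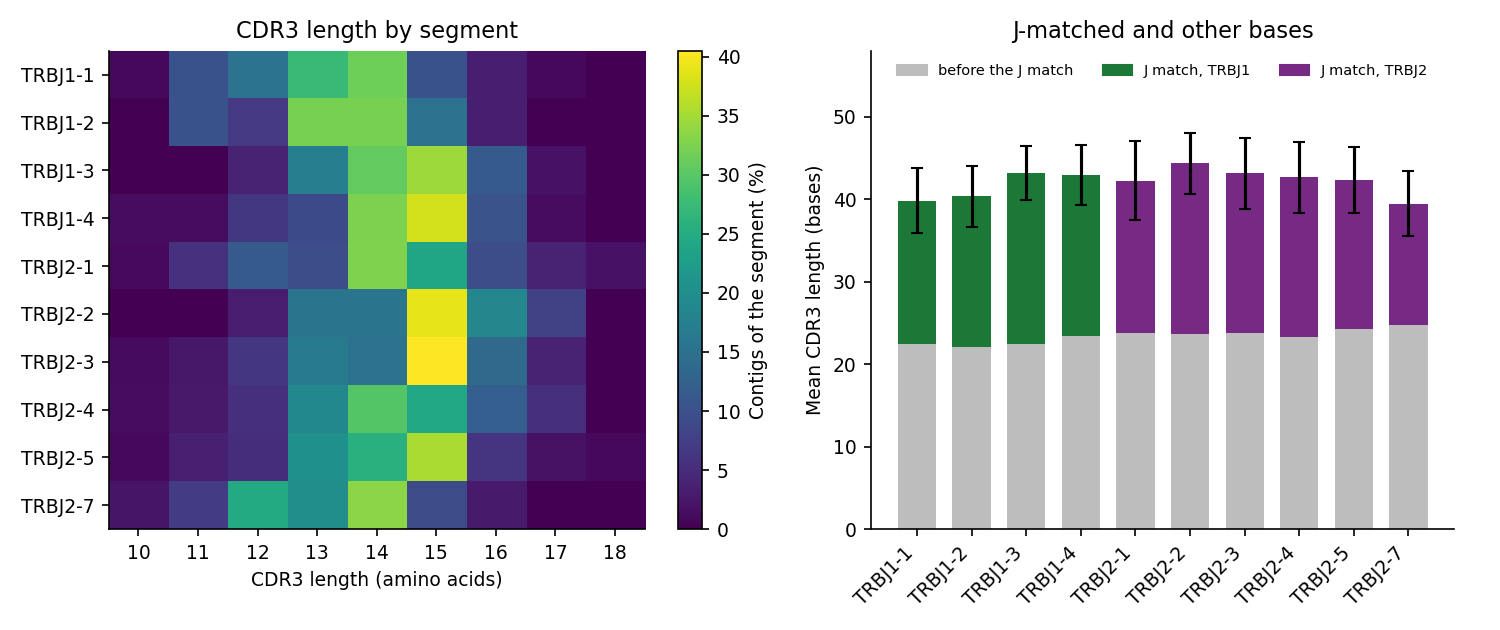
Left, share of each segment's contigs (%) at each CDR3 β length in amino acids. Right, mean CDR3 length in bases, split into bases before the J match (grey) and bases matching germline J (green TRBJ1, purple TRBJ2), with error bars giving the SD of the total over contigs; TRBJ2-7 has the lowest J part (14.7 bases) and TRBJ2-2 the highest (20.7).

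The CDR3 of the clonotypes with at least 4 member cells show such joints base by base. Clonotype size was counted over member cells only, so these need not be the largest clonotypes of the library. J bases that match germline are in capitals. All cells of these clonotypes held Cd8a or Cd8b1 UMIs and no Cd4 UMI. The first holds the whole of TRBD1 as printed above and was joined to TRBC1, and the others had no D call and were joined to TRBC2:
TRBV1 with TRBJ1-4, 8 cells: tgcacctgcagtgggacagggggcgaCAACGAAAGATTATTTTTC
TRBV15 with TRBJ2-5, 5 cells: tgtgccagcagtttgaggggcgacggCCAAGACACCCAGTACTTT
TRBV12-2 with TRBJ2-7, 4 cells: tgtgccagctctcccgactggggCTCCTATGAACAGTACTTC

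These loops were 15, 15 and 14 amino acids long. Each kept 19 J bases, which is the whole germline part in TRBJ2-7, while 4 bases were lost from TRBJ1-4 and 2 from TRBJ2-5.

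Coreceptor UMIs split the member cells by T cell lineage, since CD4 marks helper and CD8 cytotoxic T cells. There were 237 cells with Cd4 and without Cd8a or Cd8b1 UMIs (CD4-only, 26.9%), 475 with Cd8a or Cd8b1 and without Cd4 (CD8-only, 53.9%), 35 with both and 134 with neither. The classes differed in depth, with a median of 3834 UMIs in CD4-only and 7369 in CD8-only cells, and in the median ribosomal protein share, 19.1% and 30.6%. Depth was made equal for the J2 share alone, as given below. Otherwise the part of depth and of ribosomal protein share in the differences given here was not tested. As a background, Cd4 was found in 1 of 81 B-like barcodes (1.23%) and Cd8a or Cd8b1 in 2 (2.47%), at a median of 3688 UMIs. The shares of member cells were 30.9% and 57.9%. Cd79b also differed between the classes. It was seen in 14 of 154 J1 and 29 of 321 J2 cells of the CD8-only class. In the CD4-only class it was seen in 0 of 91 J1 and 0 of 146 J2 cells. The source of these Cd79b UMIs was not tested.

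No difference in segment use between the lineages had a counting interval that left out 0. The J2 share was 61.6% in CD4-only cells (146 of 237, 55.1% to 67.8%) and 67.6% in CD8-only cells (321 of 475, 63.2% to 71.8%). The difference of 5.98 percentage points had an interval from -1.39 to 13.5. Cells with both coreceptors were at 80.0% (28 of 35) and those with neither at 67.2% (90 of 134). TRBJ2-7 led in both lineages, with 44 CD4-only cells (18.6%) and 87 CD8-only cells (18.3%). The largest differences were in J1 segments, TRBJ1-2 with 22 cells (9.28%) against 26 (5.47%), and TRBJ1-3 with 19 (8.02%) against 23 (4.84%), each higher in CD4-only cells. The interval of the difference held 0 for each of the 10 segments, and for TRBJ1-2 it ran from -8.50 to 0.106 points. When every cell was thinned to 2500 UMIs, leaving out 90 cells with fewer, the J2 share was 63.9% of 158 CD4-only and 67.0% of 445 CD8-only cells. The difference was then 3.04 points, against 5.98 before thinning.

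**Figure D4:**
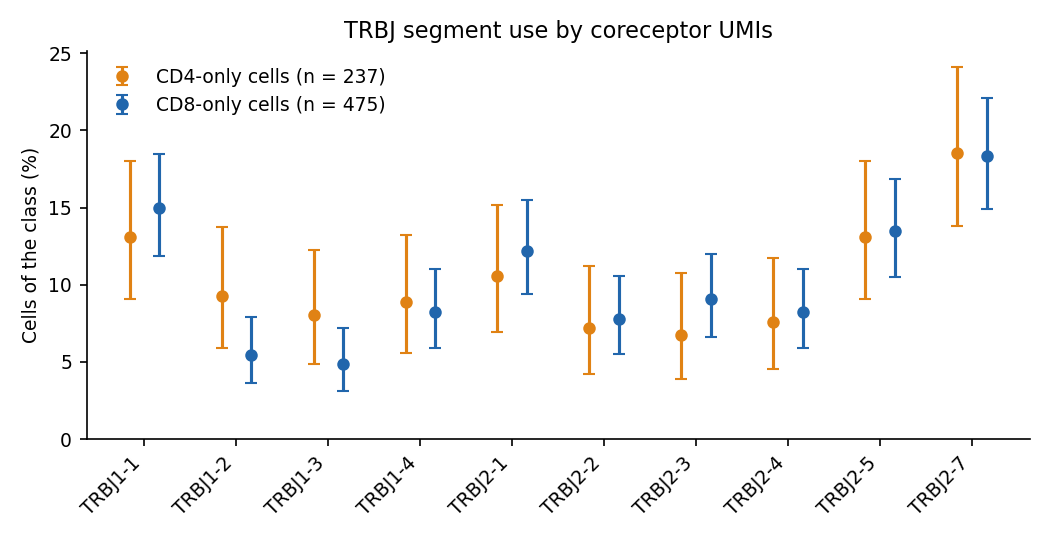
Share of CD4-only cells (orange, n = 237) and of CD8-only cells (blue, n = 475) that used each TRBJ segment (%), with exact 95% binomial intervals. The intervals overlap for every segment, and TRBJ2-7 is highest in both classes at 18.6% and 18.3%.

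C pairing was complete in both lineages, with TRBC1 in 92 of 92 CD4-only and 155 of 155 CD8-only J1 contigs, and TRBC2 in 150 of 150 and 330 of 330 J2 contigs. TRBD2 took 16 of 31 D calls in J2 contigs of CD4-only cells (51.6%) and 39 of 75 in CD8-only cells (52.0%). By matches the shares were 55.8% and 65.6%, and the difference of 9.79 points had an interval from -1.82 to 21.5. Of 24 differences computed between the lineages, 22 had an interval that held 0. The exceptions were both the share of J1 contigs with a D call, counted per contig and per clonotype. It was 10 of 93 in CD4-only cells (10.8%) and 43 of 159 in CD8-only cells (27.0%), 16.3 points apart (6.17 to 25.1). With each clonotype counted once, a choice made after that value was seen, it was 10 of 92 and 36 of 149 (10.9% and 24.2%). With 24 intervals of 95% and no correction for their number, 1 or more that misses 0 can come from counting error. Nor are the 24 independent. C pairing was at 100% and TRBD2 calls in J1 contigs at 0% in both lineages, and the J2 share restates the segment shares. The share of J1 contigs with a germline D match was 49.5% and 58.5%, with a difference of 9.03 points (-3.62 to 21.4).

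CDR3 β length was 13.7 ± 1.44 amino acids in CD4-only (n = 244 contigs) and 14.0 ± 1.48 in CD8-only cells (n = 489). In J1 contigs the means were 13.71 and 13.72, which differ by 0.0073 amino acids. In J2 contigs they were 13.7 ± 1.48 (n = 151) and 14.1 ± 1.53 (n = 330). CD8-only contigs had the higher mean in 7 of 10 segments, with differences from -0.114 for TRBJ2-7 to 0.795 amino acids for TRBJ2-5, where the means were 13.5 ± 1.48 (n = 31) and 14.3 ± 1.16 (n = 64). The J bases kept differed by 0.0736 between the lineages and the bases ahead of them by 0.664. The SDs give the spread of single contigs, not the error of a mean, and whether the means differ was not tested. Each cell of a clonotype adds its own contig, as do the 5 CD8-only TRBJ2-5 cells whose loop of 15 amino acids is shown above.

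The gene expression library gave a separate readout of the locus in the same cells. Trbc1 and Trbc2, the constant genes of the clusters, held 399 and 411 UMIs in J1 cells and 236 and 953 in J2 cells. Trbc1 thus took 49.3% of the constant gene UMIs in J1 cells (45.8% to 52.8%) and 19.8% in J2 cells (17.6% to 22.2%), a difference of 29.4 points (25.2 to 33.5). The rate of Trbc1 was 2.30 UMIs per 10000 in J1 and 0.661 in J2 cells. That of Trbc2 was 2.36 (2.14 to 2.60) and 2.67 (2.50 to 2.85). These Trbc2 intervals overlap in part, and no interval was computed for the difference. Of the 296 J1 cells, 66 held Trbc1 UMIs alone, 58 Trbc2 alone, 120 both and 52 neither. Of the 585 J2 cells it was 30, 313, 105 and 137. The matrix therefore named the cluster less sharply than the contigs, in which no J1 chain carried TRBC2. These genes are near-identical copies, and how reads shared between them were counted is not given in the sources used here. In B-like barcodes they held 0 and 4 UMIs in 323913. Leaving out cells with a second productive TRB contig, Trbc1 took 48.8% in J1 and 19.5% in J2 cells. Cells with a non-productive TRB contig were kept in. Within the lineages Trbc1 took 55.7% and 14.0% in CD4-only cells, and 47.4% and 21.8% in CD8-only cells.

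The matrix also counts the J genes one by one, at low rates. The highest was Trbj2-1, which was singled out after its values were seen. In cells with 1 productive TRB contig (with or without a non-productive one), it held 76 UMIs in 53 of 289 J1 cells. That was 0.448 per 10000 (0.353 to 0.561). In cells that had joined TRBJ2-1 itself it held 9 UMIs, 0.150 per 10000 (0.0685 to 0.284), and in cells with TRBJ2-2 to TRBJ2-7 22 UMIs, 0.0799 (0.0501 to 0.121). The matrix count of this gene was higher in cells whose productive chain used J1 than in cells whose chain used TRBJ2-1. The median depth in the matrix was alike, 5155, 4982.5 and 4845 UMIs. In the receptor library, contigs with TRBJ2-1 held a median of 8 UMIs. The matrix count is therefore not a measure of the joined chains, and what RNA it holds was not tested. The order held in both lineages, with 0.666 per 10000 in J1 against 0.134 in J2 cells of the CD4-only class and 0.309 against 0.0699 in the CD8-only class. B-like barcodes held 0 Trbj2-1 UMIs in 323913, which allows up to 0.0926 per 10000. That limit lies above the rate in cells with TRBJ2-2 to TRBJ2-7.

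Pooled per gene, the intervals of the other Trbj2 genes in J1 and J2 cells overlapped. In J1 cells all Trbj2 genes held 148 UMIs, 0.125 per 10000 (0.105 to 0.146), but 76 of them were of Trbj2-1, and without it the rate was 0.0707 (0.0554 to 0.0891). Also without Trbj2-1, the genes upstream of the joined segment in J2 cells were at 0.0419 (0.0287 to 0.0592), the joined gene at 0.0654 (0.0387 to 0.103) and those downstream at 0.0729 (0.0569 to 0.0919). With it, the upstream genes were at 0.0520 and the joined gene at 0.0805. In J1 cells the Trbj1 genes upstream of the joined segment were at 0.122 (0.0798 to 0.179) and the joined gene at 0.0884 (0.0495 to 0.146). Those downstream were at 0.0422 (0.0293 to 0.0590). In J2 cells the Trbj1 genes were at 0.0430 (0.0350 to 0.0523). These pools hold different genes: only Trbj1-1 to Trbj1-3 can be upstream, and Trbj2-7 never is. In J2 cells with 1 productive TRB contig, Trbj1-1 (0.0924) and Trbj1-2 (0.107) also exceeded Trbj1-3 to Trbj1-7 (0.0149 to 0.0268). Trbj2-7 was at 0.131 there. An effect of position apart from the gene was not tested. Trbd1 and Trbd2 held 0 UMIs in both J1 and J2 cells. At 12 and 14 bases these genes may be too short for reads to be assigned to them, so this gives no limit on their RNA.

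**Figure D5:**
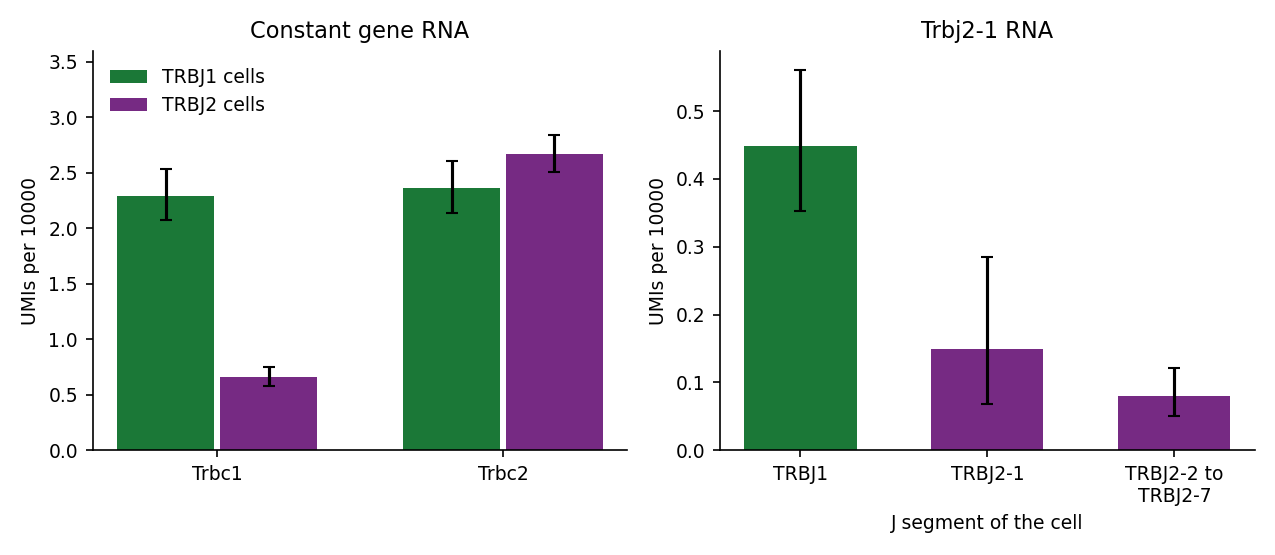
Pooled UMIs per 10000 in the gene expression matrix with exact 95% Poisson intervals. Left, Trbc1 and Trbc2 in J1 cells (green, n = 296) and J2 cells (purple, n = 585), where Trbc1 is at 2.30 and 0.661. Right, Trbj2-1 in cells with 1 productive TRB contig, by the J segment that the cell had joined, where J1 cells are highest at 0.448.

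Genes of the joining machinery were read in the same cells. Rag1 and Rag2, which cut the segments in the thymus, held 0 UMIs in 881 cells, which allows up to 0.00565 per 10000. Dntt, the enzyme that adds bases at the joint, held 21 UMIs in 17 cells. Of the genes that repair breaks, Xrcc4 was at 0.692 per 10000, and Hmgb1 and Hmgb2, which bend DNA for the recombinase, at 3.98 and 2.02. For all 12 genes of the list the intervals of J1 and J2 cells overlapped.

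V segments were joined to the J segments broadly. The member contigs held 22 V names, and 194 of 220 possible V and J pairs (88.2%) were seen. The joint name TRBV12-2+TRBV13-2 (75 contigs) was counted as 1 V name, and what it stands for is not given in the sources used here. Of the pairs, 28 were seen in 1 contig, and 13 V names were joined to all 10 segments. Counted by these names, TRBV16 was the most frequent partner of TRBJ2-7 (15 contigs), TRBJ2-5 (12), TRBJ1-1 (11) and TRBJ1-3 (8). The joint name held 14, 11, 8 and 5 contigs with these segments. Counting it with TRBV12-2 or TRBV13-2 can change which V leads. TRBV1 led with TRBJ2-1 (15), TRBV13-1 with TRBJ2-3 (9) and the joint name with TRBJ2-4 (9). For TRBJ1-4, TRBV1 and TRBV19 were equal with 10 contigs each, and 8 cells of the former belong to the clonotype shown above. For TRBJ1-2 and TRBJ2-2 no V name stood out, with at most 5 contigs, shared by 5 and 4 V names. Over 20 V names with at least 20 contigs, the J2 share ran from 43.5% for TRBV26 (10 of 23) to 81.8% for TRBV14 (27 of 33). The interval of 19 of them held the share over all contigs, 66.4%, and TRBV26 (23.2% to 65.5%) was the exception.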

How the data were processed

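T cells of 1 vehicle-treated mouse were measured with 10x Genomics receptor and gene expression libraries of the same barcodes. The authors ran Cell Ranger (version 4 per the file headers of the matrix, with GRCm38 in the submitters' processing notes) and deposited a matrix of UMI counts as read, with 32285 genes and 300213 barcodes and no cell filter, and a contig table with read and UMI counts, cell calls, genes, CDR3 and clonotypes. Cells, productive contigs and genes are the authors' calls, the settings of which are not given in the sources used here, and doublets were not removed.

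Counts were pooled per group of cells and divided by total UMIs. A cell counts for each J segment it holds, and its cluster is that of its TRB contig with most UMIs. J bases kept are the longest run from the 3′ end of CDR3 that equals germline, and D matches need at least 6 bases, starting after the first 9 bases of CDR3. Both were run on 2000 simulated contigs, of which 93.0% had a D match, 100% of these right, and 0 J1 contigs matched TRBD2. Every simulated D segment kept the differing base, so these values do not show how often matches in the data are right. In the data 53.8% of J1 and 64.2% of J2 contigs had a match, and 16 of 164 J1 matches were to TRBD2. Germline sequences were taken by gene name and positions by Ensembl identifier (18 of 18 matched) from GENCODE vM39, without converting coordinates. They replaced the most frequent CDR3 ends that had been planned for display. B-like barcodes had more than 1331 UMIs (the 99th percentile of the 3000 largest barcodes divided by 10), UMIs of at least 2 of the 3 B cell genes Cd79a, Cd79b and Ms4a1, and none of Cd3d, Cd3e or Cd3g. Named genes are the 10 members, the other J, D and C genes, each member's most frequent V gene and 12 joining genes. Where nothing was counted, the limit printed is that of 3 counts. A further B cell gene of the planned list is not reported here, and the B cell values were computed without it. Members and lists were chosen with earlier results of these data known. Alternatives were other cell, contig and coreceptor rules. Python 3.11.15, numpy 2.4.6, pandas 2.3.3 and scipy 1.17.1 were used.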

Additional observations from a re-analysis of the deposited data

Results flagged for a closer look

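Member J segments also appeared in contigs outside the counts above. Non-productive TRB contigs of cells numbered 106, in 104 barcodes, with 42 in J1 (39.6%, 30.3% to 49.6%) and 64 in J2 (60.4%, 50.4% to 69.7%). TRBJ1-2 and TRBJ2-7 had most, 15 each (14.2%, 8.14% to 22.3%), and TRBJ2-2 had 2 (1.89%, 0.229% to 6.65%). In productive chains TRBJ1-2 was in 6.70% (5.14% to 8.55%) and TRBJ2-2 in 7.26% (5.64% to 9.18%) of cells. These are shares of cells, not of contigs, and each interval overlapped that of the non-productive contigs. The non-productive contigs rested on a median of 3 UMIs in J1 and 2 in J2. C genes again stayed within the cluster, with TRBC1 in 39 J1 and TRBC2 in 56 J2 contigs and none crossed, and TRBD2 was called in 0 of 8 J1 contigs and 10 of 19 J2 contigs.

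Productive contigs of barcodes not called cells numbered 2079, in 2048 barcodes. Their J2 share was 67.8% (65.7% to 69.8%) and TRBJ2-7 led again with 412 (19.8%). TRBD2 was called in 0 of 161 J1 contigs and 186 of 376 J2 contigs. Of these contigs 1847 (88.8%) rested on 1 UMI, and 753 (36.2%) had a CDR3 nucleotide sequence that a member cell also held.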

How the results depend on the processing

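Under 11 alternative settings, 136 of 140 values stayed within the counting interval of the value reported or, for CDR3 length, within 1 SD over contigs, a wide limit for a difference of means. The J2 minus J1 difference in CDR3 length was 0.196 amino acids. It ran from 0.0657 with all TRBJ segments to 0.260 with 1 productive TRB contig per barcode. The J2 share moved to 61.7% when all TRBJ segments were counted, because the added segments are both in J1. The difference in the Trbc1 share became 34.6 points as a mean over cells. With D matches of at least 8 bases, chosen after the data were seen, the TRBD2 share became 3.80% in J1 and 74.8% in J2 contigs. TRBJ2-7 was most and TRBJ1-3 least used of the 10 members in all 7 alternatives for use, and with all segments counted TRBJ1-5 and TRBJ1-6 were used less. TRBJ2-5 passed TRBJ1-1 where barcodes of low ribosomal protein share were left out. The lineage difference in J2 share ran from 3.04 to 7.45 points. Counting contigs of either confidence changed no value, since 0 low-confidence productive contigs were in cells.

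With 1 mouse, the design gives neither the spread between animals nor a treatment effect. Contig calls rest on few UMIs, and the small numbers of D calls limit any order among segments. No paired analysis was possible because there is 1 group of 1 library.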
